A study of Mus musculus with 16 samples.

Results

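The genes described here are 42 genes of skeletal muscle, chosen by name for their parts in contraction, its calcium control, its energy supply and its developmental programme. They were followed in the calvaria, the skull roof, on 15 arrays from male mice at postnatal day 7. Probes were annotated to 38 of the 42, and Myh2, Myh3, Cacna1s and Neb are not analysed here. Where a gene had several probes, the one with the highest mean log2 intensity was taken. Of the 38 genes, 36 passed the filter on dim probes (above the array's median on at least 3 of 15 arrays) and were tested among 9918 genes. Myh4 and Myod1 did not pass it.

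The mice had 4 genotypes. WT mice were wild type (4 arrays), R-Het mice were Runx2+/- (4 arrays), A-KO mice were Axin2-/- (3 arrays) and A-KO:R-Het mice were Axin2-/-:Runx2+/- (4 arrays). Both defects lie in genes of the bone lineage's control: Axin2 restrains Wnt signalling and Runx2 is needed for osteoblast formation. The labels give no cell type for the deletions, and neither the dissection nor the removal of attached tissue is described in the sources used here. A further A-KO array, replicate 2, was labelled as damaged and left out. The arrays lay on 2 chips, with 2 arrays of each genotype on each, except for 1 A-KO array on chip 1 once the damaged one was left out. Median intensity was 92.9 to 95.5 on the 15 arrays.

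Skeletal muscle contracts when motor nerves open acetylcholine receptors on the fibre, the signal spreads to calcium channels and calcium leaves the sarcoplasmic reticulum. Calcium binds troponin on the thin filament of actin and tropomyosin, and the myosin heads of the thick filament then pull on it. Fast and slow fibres use separate genes for many of these parts, and growing muscle moves from developmental to adult myosins and receptor subunits around and after birth. Muscles such as the temporalis and occipitalis attach to the skull roof, whereas osteoblasts and other bone cells do not build sarcomeres. In whole-tissue RNA, fewer muscle cells and less RNA per muscle cell cannot be told apart.

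Most of these genes carry E-boxes, the letters CANNTG that myogenic factors such as MyoD and myogenin bind, in the stretch from 250 bases before to 50 bases after the start. RefSeq promoter windows (GRCm38.p6) were matched by symbol for 30 of the 38 genes, 35 windows in all, since some genes have several starts and 2 of the 3 Mb windows overlap. CANNTG, read on both strands, was present in 32 of the 35 windows (91.4%), against 72.3% of all 32851 windows of this length. The form CAGCTG, which every such count of CANNTG includes, was present in 21 (60.0%), against 16.3% of all windows. The MEF2 box, named for the MEF2 factors of muscle, was present in 5 (14.3%), against 1.9%. The 4 windows below belong to an actin, a fast light chain, a perinatal myosin and a receptor subunit, all members with wide differences between mice. They are written 5′ to 3′ on the gene's strand with every CANNTG in capitals. These letters are a description of sequence and show no binding.
Acta1 (chr8:123894726-123895025, minus strand): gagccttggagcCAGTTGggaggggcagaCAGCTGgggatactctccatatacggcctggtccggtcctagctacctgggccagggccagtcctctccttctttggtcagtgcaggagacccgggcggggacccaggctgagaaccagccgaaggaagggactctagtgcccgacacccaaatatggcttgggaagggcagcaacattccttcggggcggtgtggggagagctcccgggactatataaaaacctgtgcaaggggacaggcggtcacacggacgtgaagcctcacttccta
Mylpf (chr7:127211358-127211657, plus strand): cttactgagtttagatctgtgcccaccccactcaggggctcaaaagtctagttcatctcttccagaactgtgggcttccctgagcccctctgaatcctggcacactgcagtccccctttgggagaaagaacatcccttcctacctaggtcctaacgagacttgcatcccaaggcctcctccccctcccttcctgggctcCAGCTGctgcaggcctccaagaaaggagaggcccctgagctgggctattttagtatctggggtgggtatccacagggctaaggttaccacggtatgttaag
Myh8 (chr11:67276874-67277173, plus strand): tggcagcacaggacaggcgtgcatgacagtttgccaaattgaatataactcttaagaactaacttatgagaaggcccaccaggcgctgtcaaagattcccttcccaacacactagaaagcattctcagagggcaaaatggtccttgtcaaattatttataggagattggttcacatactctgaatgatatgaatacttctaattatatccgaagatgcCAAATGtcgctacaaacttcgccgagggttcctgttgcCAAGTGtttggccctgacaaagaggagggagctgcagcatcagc
Chrna1 (chr2:73580289-73580588, minus strand): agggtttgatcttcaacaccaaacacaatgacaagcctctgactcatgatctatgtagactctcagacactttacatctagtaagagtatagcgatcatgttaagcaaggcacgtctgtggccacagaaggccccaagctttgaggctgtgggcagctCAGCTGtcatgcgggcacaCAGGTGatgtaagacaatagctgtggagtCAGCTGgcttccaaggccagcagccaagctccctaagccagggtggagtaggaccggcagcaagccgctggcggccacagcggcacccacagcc
Acta1 and Mylpf each hold 1 CAGCTG, Chrna1 holds 2 and Myh8 holds 0.

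The mean over the 36 tested genes, taken per array on the log2 scale, differed widely between mice of every genotype. It was 9.93, 8.35, 10.40 and 8.27 in the WT mice, 7.19, 8.29, 7.40 and 10.60 in the R-Het mice, 9.42, 8.44 and 7.74 in A-KO (replicates 1, 3 and 4), and 8.72, 8.37, 9.46 and 7.08 in A-KO:R-Het. R-Het replicate 4, WT replicate 3 and WT replicate 1 were highest, and A-KO:R-Het replicate 4, R-Het replicate 1 and R-Het replicate 3 were lowest. Both ends of the order held R-Het mice, and all 4 genotypes overlapped. From the lowest to the highest array the mean differed by 3.52, or 11.5-fold. Within genotypes it was 9.24 ± 1.09 for WT, 8.37 ± 1.56 for R-Het, 8.53 ± 0.85 for A-KO and 8.41 ± 1.00 for A-KO:R-Het (mean ± SD, n = 4, 4, 3 and 4). Without replicate 4 the R-Het SD was 0.58. Without A-KO replicate 1 the A-KO SD was 0.50, and without A-KO:R-Het replicate 4 the A-KO:R-Het SD was 0.56. Each chip held arrays from both ends: WT ran from 8.35 to 9.93 on chip 1 and from 8.27 to 10.40 on chip 2, and R-Het from 7.19 to 8.29 and from 7.40 to 10.60.

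**Figure D1:**
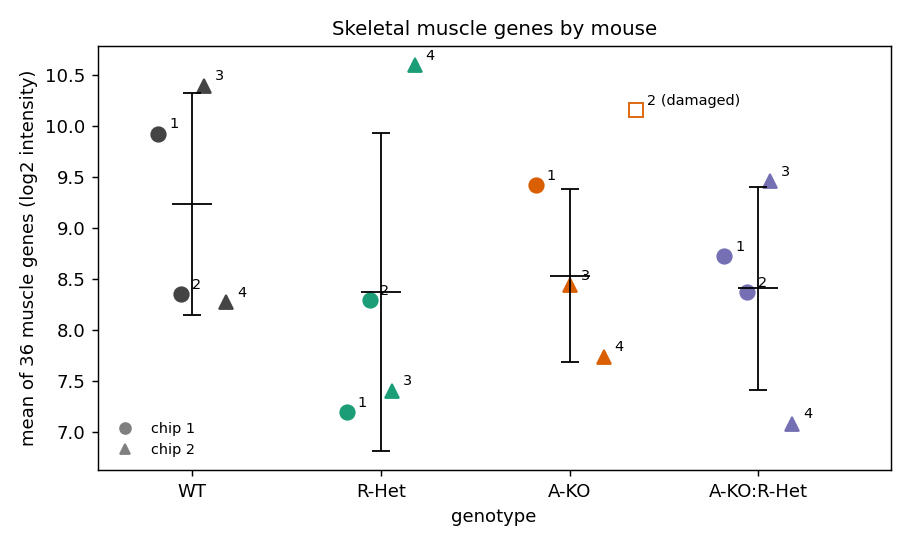
Mean log2 intensity of the 36 tested muscle genes (vertical axis) in each mouse by genotype (horizontal axis); each point is 1 array, numbered by replicate, circles are chip 1, triangles chip 2, and bars are mean ± SD without the open square, the array labelled as damaged. The points of every genotype overlap those of the others, with R-Het mice at both 7.19 and 10.60.

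Thin filament genes showed this spread at full size. Acta1, the actin of skeletal thin filaments, read 14.02, 12.22, 14.59 and 12.09 in the WT mice, 9.81, 12.59, 10.20 and 14.28 in the R-Het mice, 13.65, 12.31 and 11.35 in the A-KO mice and 12.87, 12.30, 13.56 and 9.58 in the A-KO:R-Het mice (log2 intensity, replicates in order, as for all series of values here). R-Het mice were found near both ends, all 4 genotypes overlapped, and the lowest and highest of the 15 arrays differed by 5.01, or 32.2-fold. Tnnc2, the calcium-binding troponin subunit of fast fibres, had the widest range of the role, 5.98 (63.1-fold). It read 12.78, 10.505, 13.29 and 10.44 in the WT mice, 7.62, 10.08, 8.29 and 13.60 in the R-Het mice, 12.08, 10.54 and 9.51 in the A-KO mice and 11.08, 10.35, 12.28 and 8.12 in the A-KO:R-Het mice. R-Het replicate 4 was its highest array and R-Het replicate 1 its lowest. Tnni2 and Tnnt3, the inhibitory and tropomyosin-binding subunits of fast troponin, ranged over 5.33 and 4.58. Of the slow subunits, Tnnt1 read 9.66, 8.26, 9.70 and 8.79 in the WT mice, 7.49, 7.72, 7.59 and 10.84 in the R-Het mice, 9.47, 8.997 and 7.77 in the A-KO mice and 9.18, 8.34, 9.81 and 7.37 in the A-KO:R-Het mice. R-Het replicate 4 stood well above the other R-Het mice, which lay close together. Tnnc1, the calcium-binding subunit of slow fibres and heart, read 8.30, 7.48, 7.61 and 8.05 in the WT mice, 7.23, 7.06, 6.99 and 9.54 in the R-Het mice, 8.64, 8.18 and 7.20 in the A-KO mice and 8.31, 7.28, 8.82 and 6.89 in the A-KO:R-Het mice. Its highest array was again R-Het replicate 4, whereas WT replicate 3, which led in Acta1, was its median array. Tnni1 ranged over 0.97 at a level near its array medians, where differences are compressed.

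Tpm2, a tropomyosin gene spliced into muscle and non-muscle forms, stood apart from its neighbours on the filament. Its brightest probe, the one the rule takes, ranged over 0.74 and read 10.52, 10.49, 10.54 and 10.27 in the WT mice, 10.60, 10.69, 10.56 and 10.71 in the R-Het mice, 10.86, 10.47 and 10.68 in the A-KO mice and 10.52, 11.01, 10.77 and 10.57 in the A-KO:R-Het mice. A dimmer probe of the same transcript record (NM_009416) ranged over 5.39 and read 11.83, 9.57, 12.41 and 9.46 in the WT mice, 7.36, 9.61, 7.74 and 12.55 in the R-Het mice, 11.08, 9.65 and 8.65 in the A-KO mice and 10.23, 9.502, 11.29 and 7.16 in the A-KO:R-Het mice. That second probe was high and low on the same mice as Acta1, whereas the first was nearly level. The sources used here do not say where in the gene either probe lies. Probes of the other genes also differed in how far they followed the chosen one. The second Myh8 probe ranged over 5.81 beside 6.32 for the first, with R-Het replicate 4 highest and A-KO:R-Het replicate 4 lowest in both. The dimmest of 4 Ryr1 probes ranged over 0.73 beside 3.87. The second Myog probe ranged over 0.65 with R-Het replicate 1 highest, the dimmest Chrna1 probe over 0.45 with A-KO:R-Het replicate 3 highest, and the second Myot probe over 0.32 with A-KO:R-Het replicate 1 highest, so these did not keep the order of mice of the chosen probes. The Chrna1 and Myot ones were above the array's median on 0 arrays.

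The thick filament held the 2 genes with the largest spread of all 9918. Mylpf, the regulatory light chain of fast myosin, ranked first, with an SD between mice of one genotype of 2.01 (pooled over genotypes). It read 12.86, 10.25, 13.51 and 9.93 in the WT mice, 7.41, 9.995, 8.20 and 13.48 in the R-Het mice, 11.79, 10.33 and 9.20 in the A-KO mice and 10.73, 10.15, 12.27 and 7.997 in the A-KO:R-Het mice. Those arrays differed by up to 68.5-fold, with WT replicate 3 and R-Het replicate 4 highest. Myh8, the perinatal myosin heavy chain, ranked second with an SD of 1.99. Its values were 13.65, 11.31, 13.60 and 10.98 in the WT mice, 8.67, 10.78, 8.84 and 14.35 in the R-Het mice, 12.93, 11.61 and 10.75 in the A-KO mice and 11.96, 11.29, 13.10 and 8.03 in the A-KO:R-Het mice. R-Het replicate 4 was highest and A-KO:R-Het replicate 4 lowest, 79.8-fold apart. Myl1, the essential light chain of fast fibres, ran from 10.40 to 14.77 and was the brightest probe of its array in R-Het replicate 4. Myh1, an adult fast heavy chain, read 10.12, 8.29, 11.60 and 6.97 in the WT mice, 6.49, 8.52, 6.82 and 10.10 in the R-Het mice, 9.67, 8.01 and 6.67 in the A-KO mice and 7.96, 8.19, 8.94 and 6.19 in the A-KO:R-Het mice. WT replicate 3 was its highest array. Myh4, the heavy chain of the fastest adult fibres, read 5.66 to 6.46 and was above its array's median on 0 of 15 arrays. Myl2, the regulatory light chain of slow and heart muscle, read 8.85, 7.85, 8.69 and 8.66 in the WT mice, 7.20, 7.55, 6.79 and 10.42 in the R-Het mice, 9.28, 8.70 and 6.89 in the A-KO mice and 8.92, 7.34, 9.74 and 6.45 in the A-KO:R-Het mice. R-Het replicate 4 was highest and R-Het replicates 1 and 3 were among the lowest. Myl3, the essential light chain of the same muscles, ran from 6.30 to 9.94. Mybpc1 and Mybpc2, the slow and fast myosin-binding proteins C, ran from 7.08 to 10.95 and 6.03 to 8.85.

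Genes of the Z-disc and of the elastic scaffold followed the same order of mice. Ttn, which encodes the giant spring protein titin, read 10.58, 8.65, 11.59 and 8.33 in the WT mice, 7.34, 8.85, 7.42 and 11.59 in the R-Het mice, 10.18, 9.11 and 8.07 in the A-KO mice and 9.06, 8.77, 10.25 and 6.56 in the A-KO:R-Het mice. Its highest arrays were WT replicate 3 and R-Het replicate 4, both at 11.59, and its lowest was A-KO:R-Het replicate 4. Des, the intermediate filament protein desmin, ran from 7.38 to 10.94 with the same 2 arrays on top. The Z-disc crosslinkers Actn2 and Actn3 ranged over 5.26 and 3.05, and the Z-disc proteins Myoz1, Tcap and Myot over 3.596, 3.07 and 1.17.

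Calcium handling and energy supply genes had ranges as wide as the filaments. Atp2a1, the calcium pump that refills the store of fast fibres, ranged over 6.18 (72.6-fold). Pvalb, the calcium buffer parvalbumin of the fastest fibres, read 11.48, 8.85, 13.08 and 8.42 in the WT mice, 6.86, 9.37, 7.87 and 11.51 in the R-Het mice, 9.76, 7.69 and 7.34 in the A-KO mice and 7.94, 9.59, 9.77 and 7.09 in the A-KO:R-Het mice. WT replicate 3 was its highest array by 1.56 over R-Het replicate 4, the next. Ryr1, the release channel, ran from 6.27 to 10.15, Cacng1, a subunit of the voltage sensor, from 6.21 to 8.26, and Casq1, the store's calcium-binding protein, from 5.86 to 7.42. Ckm, the muscle creatine kinase, read 10.57, 8.66, 11.56 and 8.11 in the WT mice, 6.47, 8.53, 6.72 and 11.80 in the R-Het mice, 9.94, 8.37 and 7.27 in the A-KO mice and 8.95, 8.51, 9.87 and 6.29 in the A-KO:R-Het mice. R-Het replicate 4 and WT replicate 3 were highest, and A-KO:R-Het replicate 4 and R-Het replicates 1 and 3 lowest, the same 5 arrays as for Mylpf. Mb, the oxygen store myoglobin, read 10.87, 8.99, 12.61 and 9.42 in the WT mice, 7.28, 9.47, 8.30 and 12.23 in the R-Het mice, 9.37, 8.82 and 7.61 in the A-KO mice and 9.34, 9.74, 10.09 and 6.80 in the A-KO:R-Het mice. WT and R-Het held its highest arrays, and its range was 56.2-fold. Ckmt2, the mitochondrial creatine kinase, ran from 6.40 to 10.06, Eno3, the muscle enolase, from 7.90 to 10.98, and Pygm, the glycogen phosphorylase of muscle, from 6.11 to 7.65.

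Regulators and receptor subunits had smaller differences between mice on these probes, which lay near background on many arrays. Chrna1, the alpha subunit of the muscle acetylcholine receptor, read 8.60, 6.56, 8.35 and 6.91 in the WT mice, 6.18, 6.35, 6.24 and 9.33 in the R-Het mice, 7.78, 6.92 and 6.32 in the A-KO mice and 7.26, 6.48, 7.97 and 6.08 in the A-KO:R-Het mice. Chrng, the fetal receptor subunit, read 7.02, 6.02, 6.66 and 6.30 in the WT mice, 5.92, 6.22, 5.92 and 7.56 in the R-Het mice, 6.58, 6.37 and 6.14 in the A-KO mice and 6.41, 6.25, 6.65 and 5.96 in the A-KO:R-Het mice. Both were highest in R-Het replicate 4. Myog, the differentiation factor myogenin, read 7.37, 6.36, 6.92 and 6.94 in the WT mice, 6.31, 6.29, 6.21 and 7.80 in the R-Het mice, 6.75, 6.59 and 6.34 in the A-KO mice and 6.47, 6.59, 7.03 and 6.46 in the A-KO:R-Het mice, and was highest there too. Myod1, the determination factor MyoD, read 5.99 to 6.75 and exceeded its array's median on 1 array, the others being at or below it. The 3 tested genes of this role had a median SD between mice of one genotype of 0.50, against 1.38 for the thin and 1.43 for the thick filament genes. Of the 36 tested genes, 17 were at or below the array's median on at least 1 array, so the lower end of their ranges lies at background.

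**Figure D2:**
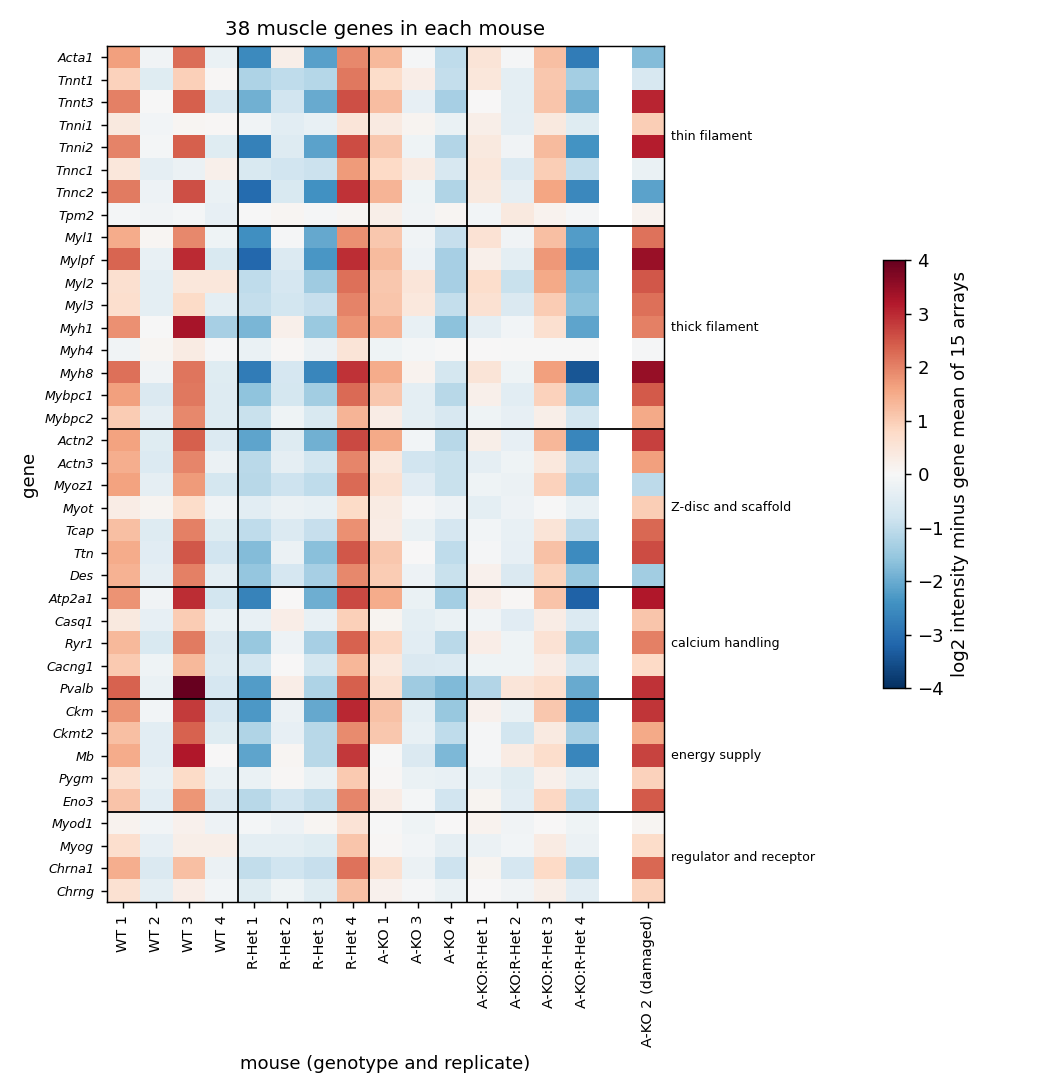
Log2 intensity minus the gene's mean over 15 arrays (colour, red above and blue below) for the 38 genes with a probe (rows, by role) in each mouse (columns, by genotype), with the array labelled as damaged set apart. WT replicates 1 and 3 and R-Het replicate 4 are red, and R-Het replicates 1 and 3 and A-KO:R-Het replicate 4 blue, in nearly every row, whereas Tpm2, Myh4 and Myod1 are pale throughout.

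Set against all genes, the muscle genes held an outsized part of the differences between mice of one genotype. Their median SD was 1.24, against 0.15 for all 9918 genes, and 26 of the 56 genes with an SD above 1 were among them. They filled 14 of the 20 and 25 of the 50 places of largest SD. The muscle genes were chosen with earlier results of these data known, so these ranks are a description only. The 36 genes, 0.363% of those tested, held 13.2% of the sum of squared deviations from the genotype means, with a range of 10.2% to 14.7% when 1 array was left out. On chip 1 alone their share was 6.26% and on chip 2 alone 23.1%. Differences between genotypes took up a median of 13.5% of each gene's sum of squares for the muscle genes and 25.5% for all genes. With 4 genotypes and 15 arrays, 21.4% would fall between genotypes on average if genotypes did not differ, and 33 of the 36 muscle genes were under that value. Most of these genes moved together across mice, so the 33 are not independent of each other.

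**Figure D3:**
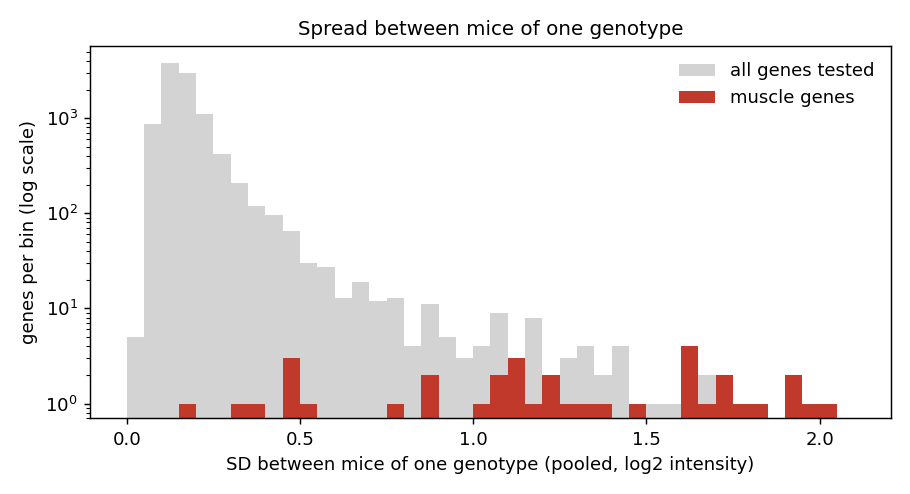
Number of genes (vertical, log scale) by the pooled SD between mice of one genotype (horizontal, log2 intensity), for all 9918 genes tested in grey and the 36 muscle genes in red. Most genes lie near the median of 0.15, and the right-hand end, up to 2.01, is largely made up of muscle genes.

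The genes rose and fell together across mice. Over the 630 pairs of tested members the median Pearson correlation across the 15 arrays was 0.90, and 325 pairs exceeded 0.9. The points share arrays and their normalization, so these are descriptions without a test. Ckm was closest to the mean of the other members (0.995), followed by Mybpc1, Actn2, Des and Tnnt3 (0.99 each). The loosest were Tpm2 by its brightest probe (0.15), Tnnc1 (0.76), Tnni1 (0.79), Myog (0.83) and Myl2 (0.85). Of these, Tnnc1, Tnni1 and Myl2 belong to slow fibres, whereas the slow-fibre genes Tnnt1 (0.94) and Myl3 (0.91) followed the mean more closely.

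WT replicate 3 and R-Het replicate 4, with like member means of 10.40 and 10.60, differed in some muscle genes by more than in others. All 38 genes with a probe were grouped by fibre type, with Mybpc1, the slow myosin-binding protein C, counted under no type. Of the 5 slow genes, 4 were higher in R-Het replicate 4 by more than 0.5, namely Tnnc1 by 1.93, Myl2 by 1.73, Myl3 by 1.23 and Tnnt1 by 1.14, and Tnni1 was higher by 0.39. Myh7, a slow myosin heavy chain outside the members, stayed between 6.06 and 6.48 on the 15 arrays and did not pass the filter. Of the 13 fast genes, 9 differed by less than 0.5 in either direction, among them Mylpf at 13.51 and 13.48 and Myl1 at 14.77 and 14.70. Among the other fast genes WT replicate 3 was higher in Pvalb by 1.56, in Myh1 by 1.49 and in Mybpc2 by 0.57, whereas Myoz1 was higher in R-Het replicate 4 by 0.56, so the fast genes did not differ in one direction. Both developmental genes were higher in R-Het replicate 4, Myh8 by 0.75 and Chrng by 0.89. Of the 18 genes counted under no fibre type, 16 differed by less than 0.5, among them Ttn at 11.59 in both. Mybpc1 was also among the 16, higher in R-Het replicate 4 by only 0.14, so it did not share the gap of the slow genes. Chrna1 and Myog were higher in R-Het replicate 4 by 0.99 and 0.88. Each of these mice is 1 array, and the pair was picked after its values were seen.

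Arrays with lower means also differed in slow genes and Pvalb. In the 6 arrays with member means between 8.27 and 8.72, namely WT replicates 2 and 4, R-Het replicate 2, A-KO replicate 3 and A-KO:R-Het replicates 1 and 2, the slow troponin gene Tnnc1 read 7.48, 8.05, 7.06, 8.18, 8.31 and 7.28. Myl2 read 7.85, 8.66, 7.55, 8.70, 8.92 and 7.34 in the same order. WT replicate 4, A-KO replicate 3 and A-KO:R-Het replicate 1 were the higher 3 in both. Pvalb read 8.85, 8.42, 9.37, 7.69, 7.94 and 9.59, and the same 3 mice were the lower 3. The higher 3 in Pvalb all lay on chip 1, as did 1 of the lower 3. Each set of 3 mixed genotypes. The fast gene Mylpf read 10.25, 9.93, 9.995, 10.33, 10.73 and 10.15, but the fast gene Myh1 read 8.29, 6.97, 8.52, 8.01, 7.96 and 8.19. The slow gene Myl3 read 7.554, 7.551, 7.21, 8.37, 8.54 and 7.37, so WT replicate 4 was not above WT replicate 2 in it. The 6 arrays were grouped by their member means, with the values of these genes known. Averaged over 5 slow genes (Tnnt1, Tnni1, Tnnc1, Myl2 and Myl3) and 5 fast genes (Tnnt3, Tnni2, Tnnc2, Myl1 and Mylpf), as deviations from each gene's mean over 15 arrays, slow minus fast ran from -2.04 in WT replicate 3 to 1.87 in R-Het replicate 1. In the 4 arrays lowest in muscle genes (R-Het replicates 1 and 3, A-KO replicate 4 and A-KO:R-Het replicate 4) the slow genes were low. Tnnc1 read 7.23, 6.99, 7.20 and 6.89 and Myl2 7.20, 6.79, 6.89 and 6.45, against array medians of 6.55. Tnnt1 lay somewhat higher, at 7.49, 7.59, 7.77 and 7.37. With slow genes this low, slow minus fast cannot be read as fibre type in these arrays. In the other 11 arrays it ran from -2.04 to 0.52. By genotype, slow minus fast was -1.37, -0.24, -2.04 and 0.51 in the WT mice, 1.87, -0.22, 1.26 and -0.87 in the R-Het mice, -0.39, 0.52 and 0.36 in the A-KO mice and 0.18, -0.26, -0.39 and 1.09 in A-KO:R-Het, and all 4 overlapped, also without those 4 arrays. Its lowest values were in the arrays highest in muscle genes, namely WT replicates 3 and 1 and R-Het replicate 4. Each of the 5 slow genes had a narrower range (at most 3.97, Myl2) than each of the 5 fast genes (at least 4.37, Myl1). Slow minus fast therefore also follows the muscle level, and its part due to fibre type was not tested.

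**Figure D4:**
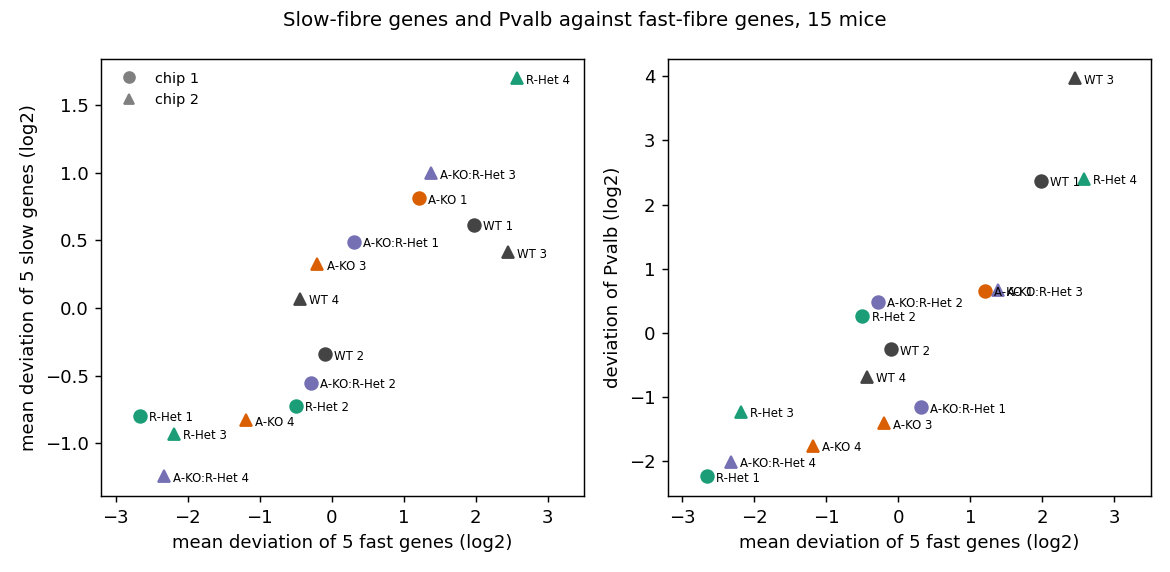
Mean deviation of 5 slow-fibre genes (left) and deviation of Pvalb (right) against the mean deviation of 5 fast-fibre genes, each from the gene's mean over 15 arrays in log2 units; each point is 1 mouse, coloured by genotype, circles chip 1 and triangles chip 2. R-Het replicate 4 and WT replicate 3 share a fast value near 2.5 (2.57 and 2.45) and lie apart in slow genes (1.70 and 0.41), with the opposite order in Pvalb.

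Whether loss of Axin2, of 1 Runx2 allele or of both changed muscle genes was tested per gene with limma over all 9918 genes. In A-KO against WT, 0 of the 36 muscle genes passed an adjusted p of 0.05, where 0.313% of all genes did, and 0 had an unadjusted p under 0.05, where 12.7% did. Their median log2 change was -0.72, beside 0.0060 over all genes, and 33 of 36 were lower. The largest differences were in Pvalb (-2.19 ± 1.14, log2 change ± standard error, adjusted p = 0.439, 95% interval -4.62 to 0.24) and Mb (-1.87 ± 1.06, adjusted p = 0.482). Acta1 stood at -0.79 ± 1.05, Mylpf at -1.19 ± 1.28, and the slow gene Tnnc1 at 0.15 ± 0.56. The A-KO and WT arrays overlapped for all 36 genes, where they did not for 13.9% of all genes. On chip 1, with 1 A-KO array, the median was 0.27, and on chip 2 it was -1.30. Without WT replicate 3 it was -0.29, and without A-KO replicate 1 it was -1.21. Markers of blood cells had negative changes in the same comparison, none past the adjusted threshold. The median change was -1.61 for erythroid genes (0 of 3 called, 3 with an unadjusted p under 0.05), whose summed intensity was 12044 to 19948 in A-KO and 22478 to 29131 in WT, and -0.84 for neutrophil genes (0 of 6 called, 4 unadjusted), with sums of 4187 to 7039 and 8045 to 14474. Their part in the muscle values was not tested.

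In R-Het against WT, 0 of 36 passed (0.0504% of all genes did), 0 had an unadjusted p under 0.05 (9.24% of all genes did), and 35 were lower. The median change was -0.73, beside 0.0042 over all genes. Mylpf stood at -1.86 ± 1.19 (adjusted p = 0.677, 95% interval -4.38 to 0.66), Tnnc2 at -1.86 ± 1.14 and Myh8 at -1.72 ± 1.18. For 1 of the 36 genes the arrays of the 2 genotypes did not overlap, against 5.04% of all genes. This was Tpm2 by its brightest probe, at 0.18 ± 0.11 (adjusted p = 0.665). By its more variable probe Tpm2 stood at -1.51. The comparison depended on R-Het replicate 4. Without it the median was -1.55, 28 of 36 genes had an unadjusted p under 0.05 (14.9% of all genes did), and still 0 passed after adjustment (lowest adjusted p = 0.141). Most muscle genes moved together across mice, so counts of them, here and on single chips, are not counts of independent genes. R-Het replicate 4 was singled out after its values were seen. Without WT replicate 3 the median was -0.37. The median was -1.34 on chip 1, where 20 had an unadjusted p under 0.05 (9.13% of all genes did), and -0.33 on chip 2, which holds R-Het replicate 4 and WT replicate 3. Cartilage genes had a median change of 0.54 in this comparison (0 of 6 called, 4 with an unadjusted p under 0.05; sums of 12802 to 17542 in R-Het), which was not tested against the muscle values.

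In A-KO:R-Het against WT, 0 of 36 passed (1.89% of all genes did), 1 had an unadjusted p under 0.05 (13.7% of all genes did), and 35 were lower. That gene was again Tpm2 by its brightest probe (0.26 ± 0.11, adjusted p = 0.307), the 1 muscle gene that was higher, and its arrays overlapped with those of WT, as for all 36 (8.56% of all genes did not overlap). The median change was -0.83, beside 0.010 over all genes. Pvalb stood at -1.86 ± 1.06 (adjusted p = 0.474, 95% interval -4.11 to 0.39), Mb at -1.48 ± 0.98, Myh8 at -1.29 ± 1.18, and Myot at -0.48 ± 0.23 (adjusted p = 0.368). The median was -0.60 on chip 1 and -1.11 on chip 2, and -0.40 without WT replicate 3. Neutrophil genes had a median change of -1.07 here (0 of 6 called, 5 with an unadjusted p under 0.05; sums of 2108 to 8980 in A-KO:R-Het), erythroid genes of -0.85 (0 of 3 called, 1 unadjusted; sums of 10162 to 27424) and cartilage genes of 0.90 (0 of 6 called, 6 unadjusted), with sums of 9400 to 30304 against 3449 to 15632 in WT. Tendon genes had a median change of 0.31 (1 of 4 called), with sums of 2792 to 3178 against 2128 to 2396 in WT. Their part in the muscle values was not tested.

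All 3 comparisons share the WT arrays, of which replicates 1 and 3 were among the 3 highest in muscle genes, so a lower value in 1 of them is not independent of the others.

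The comparisons that leave out the WT arrays gave medians nearer to 0. A-KO:R-Het against A-KO had a median of -0.13, with 27 of 36 lower and 0 called (0.555% of all genes). A-KO:R-Het against R-Het had a median of 0.015, with 17 lower, 19 higher and 0 called (0% of all genes). In both, the arrays of all 36 genes overlapped, where those of 11.4% and 2.77% of all genes did not. The interaction, the difference A-KO:R-Het minus R-Het less the difference A-KO minus WT, uses all 4 genotypes, and it had a median of 0.75 and 0 called (0% of all genes). No muscle gene had an unadjusted p under 0.05 in these 3, where 10.8%, 6.46% and 6.16% of all genes did. Within chips the first 2 medians changed sign, at -0.89 and 0.22 on chips 1 and 2 against A-KO, and at 0.78 and -0.71 against R-Het. Without R-Het replicate 4 the median against R-Het was 0.76, and without A-KO replicate 1 the median against A-KO was 0.30.

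The spread between mice set how small a difference could be seen. The median half-width of the 95% interval of the change in R-Het against WT was 1.55 for the muscle genes, against 0.23 for all genes. For Mylpf the interval ran from a large decrease to a moderate increase (-4.38 to 0.66). A p that misses the threshold here does not show that muscle genes were equal between genotypes.

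**Figure D5:**
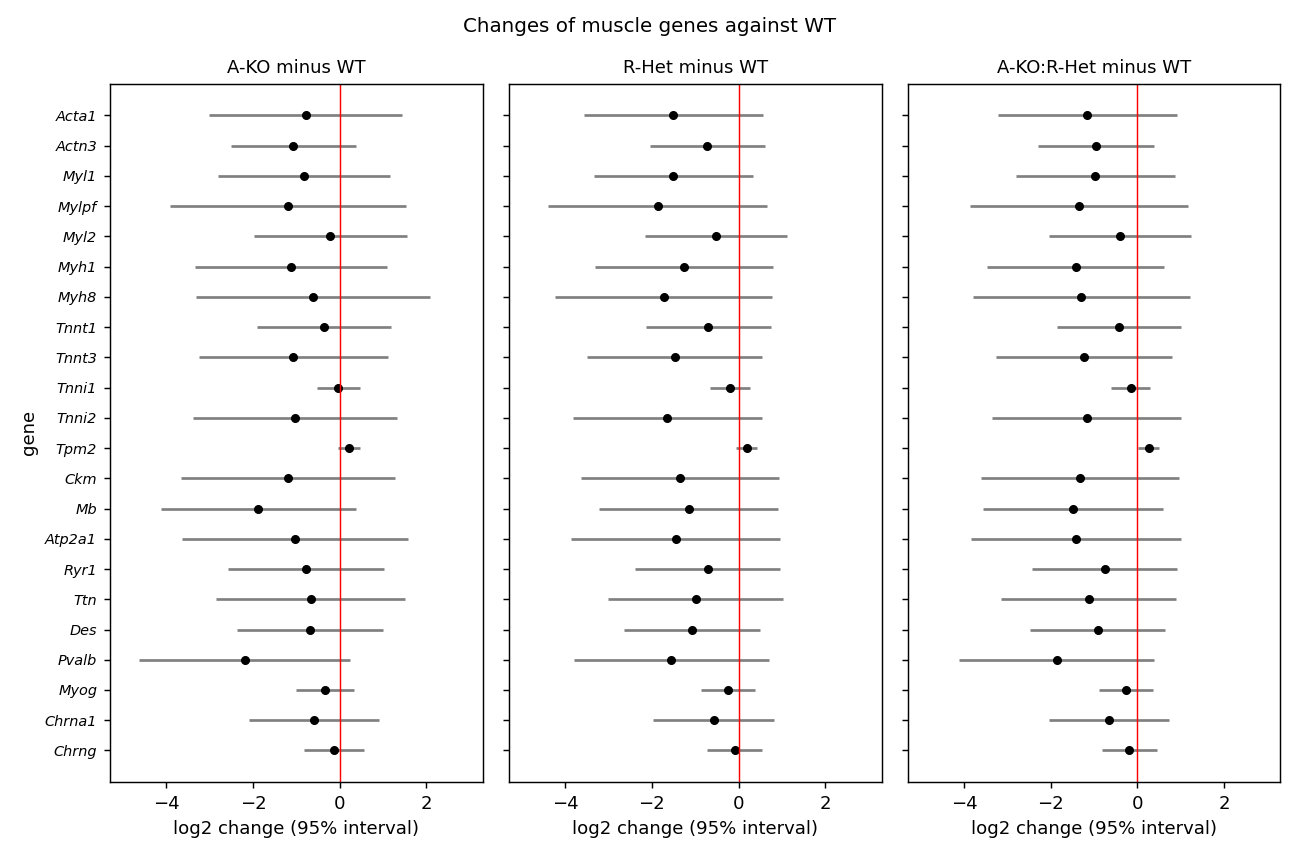
Log2 change against WT (points) with 95% intervals (lines) of 22 muscle genes (rows) in A-KO, R-Het and A-KO:R-Het (panels), from limma over 15 arrays. Nearly all points lie below 0 and, apart from Tpm2 in A-KO:R-Het, all intervals cross it.

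Further muscle genes followed the same order of mice. Of 90 other skeletal muscle genes listed, 77 had a probe and 55 were tested. Of these, 29 correlated with the members' mean above 0.9 across the 15 arrays and 40 above 0.7, and 0 of the 55 were called in any comparison. Highest were Cox8b and Cox6a2, muscle forms of cytochrome oxidase subunits (r = 0.99 for both), Nrap, a myofibril assembly protein (0.99), Pgam2, the muscle phosphoglycerate mutase (0.99), and Cavin4, a caveolar protein of muscle (0.97). Lowest were Tpm3 (-0.53), Mef2c (-0.33), Fbxo32, a ubiquitin ligase of muscle wasting (-0.11), Tpm1 (-0.062) and Smyd1, a muscle methyltransferase (-0.018), whose probe stayed between 6.25 and 6.64. Tpm1, Tpm3 and Mef2c are also expressed outside muscle, and Tpm1 ran only from 13.16 to 13.53. Actc1, the heart actin that immature skeletal muscle also makes, ranged over 4.49 (r = 0.92), and Sln, a regulator of the calcium pump, over 2.92 (r = 0.80). Among all 9882 genes that are no members, 73 correlated above 0.9 and 0 below -0.9. The 10 highest were Sypl2, a protein of muscle triads (r = 0.996), Cox8b, Cox6a2, Nrap, Eef1a2, the elongation factor form of muscle and neurons (0.99), Atp1b4 (0.99), Pgam2, Pdlim3 (0.98), Asb2 (0.98) and Cavin4. Without R-Het replicate 4 and WT replicate 3, the 2 arrays farthest from the median, Sypl2 stood at 0.995 and Cavin4 at 0.96.

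Markers of other cell types were set beside the muscle genes, as list means per array. Of the heart muscle markers, Myl7, Nppa, Nppb and Tnni3 stayed at background, while Myh6 and Myl4, a light chain that embryonic skeletal muscle also makes, passed the filter, with a mean that correlated with the members' mean at 0.80. The satellite cell markers Pax7 and Myf5 and the tendon markers Tnmd and Thbs4 stayed at background too, as did 4 of 5 adipocyte markers with a probe. For the mean of the other satellite cell markers (2 of 4) the correlation was 0.48, or 0.21 without R-Het replicate 4 and WT replicate 3. The 2 differed, with Calcr at 0.65 and Vcam1 at -0.083. For the adipocyte marker left it was 0.085. The mean of the tested smooth muscle markers (5 of 6) ran from 9.20 to 9.33 for WT, 9.23 to 9.55 for R-Het, 9.25 to 9.63 for A-KO and 9.25 to 9.51 in A-KO:R-Het, and its correlation with the members' mean was 0.20. For osteoblast markers (6 of 6) the correlation was 0.18, for cartilage (6 of 6) -0.33, for tendon (4 of 6) 0.08, for skin and hair (3 of 6) -0.29, for erythroid (3 of 4 with a probe) -0.0016 and for neutrophil (6 of 6) -0.14. These are descriptions over 15 arrays, with no test. The single tested nerve marker, Mbp of myelin, stood at 0.40, and at -0.14 without the 2 arrays highest in muscle. The mean of the osteoblast markers varied little, from 12.19 to 12.67 over all 15 arrays. Single markers varied by unlike amounts, Bglap from 14.19 to 14.70 and Ibsp from 12.55 to 14.18.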

How the data were processed

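Single-colour Illumina bead arrays were made from biotin-labelled RNA of 16 mice, per the labels' protocols. The authors' deposited values were normalized probe intensity on a linear scale; the background correction and normalization are not stated in the sources used here. A second table, with 32 columns of scanner values, was not used, since its column numbers match no label. Groups followed the genotype label, replicates were numbered in accession order, and each array came from its own mouse. Of 25697 probes, 23978 had 1 gene symbol (0 had several, 1719 none) in the platform annotation. The 15 arrays were log2 transformed, filtered to probes above the array's median on at least 3 arrays (14212 kept) and reduced to the brightest probe of each gene. The limma 3.58.1 fit (R 4.3.3) used 1 mean per genotype, empirical Bayes moderation and Benjamini-Hochberg adjustment over 9918 genes. It was also run on simulated data with independent noise for each gene. That check does not cover genes that move together, as most muscle genes did. The number of arrays limits the precision. The members and lists were chosen with earlier results of these data known, as were the genes named: 25 members of set roles, the extremes of spread and the 10 nearest other genes. Alternatives were the filter, an offset of 50, quantile normalization, mean probes, a variance trend, chip, the damaged array and each array left out. Promoter windows came from RefSeq (GRCm38.p6).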

Additional observations from a re-analysis of the deposited data

Results flagged for a closer look

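R-Het replicate 4 lay far above the other 3 R-Het mice in 3 genes, by a gap test within each genotype of 4 arrays: Tnnt1 at 10.84, Myog at 7.80 and Chrna1 at 9.33 (log2 intensity). The test was made 75 times, and chance flags about 1 in 20 groups.

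The array labelled as damaged, A-KO replicate 2, entered no comparison and read above every WT array for 14 of the 24 named members with a probe. These were Myl1 at 15.05, Mylpf at 13.99, Myl2 at 10.70, Myh8 at 14.95, Tnnt3 at 12.29, Tnni1 at 7.62, Tnni2 at 13.93, Tpm2 at 10.76, Ckm at 11.64, Atp2a1 at 13.90, Ttn at 11.70, Myog at 7.44, Chrna1 at 9.46 and Chrng at 7.30. Over all 38 genes with a probe, 22 were above every WT array and 17 above all 15 arrays. The share of all genes above every WT array was not counted. Bright probes of this array lay on another scale: its maximum was 80919 (linear intensity), against 22344 to 28330 on the 15 arrays. Myl1 at 15.05 held rank 40 by brightness there, whereas in WT replicate 3 it held rank 3 at 14.77. High values here therefore cannot be read as more muscle RNA than in WT. In the same array 7 genes were below the median of the 15. Of these, Tnnc2 read 8.57, Acta1 10.62, Des 7.51, Tnnt1 8.10, Myoz1 6.58 and Tnnc1 7.57, and Myh4 stayed at background. Tnni2, the partner of Tnnc2 in fast troponin, read 13.93 on this array.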

How the results depend on the processing

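No member was called in any of the 6 comparisons under any of the 11 other settings or with any of the 15 arrays left out. Medians of the members moved by less than the SD of the members' mean between mice (1.18) in all of these. A-KO against WT nonetheless changed sign, from -0.72 to 0.27 on chip 1 alone. That SD describes single mice and exceeds all 6 medians in size, so passing it does not show that the medians were stable. With 1 array left out they ran from -1.21 to -0.29 for A-KO, -1.55 to -0.37 for R-Het and -1.22 to -0.40 for A-KO:R-Het against WT, from -0.55 to 0.33 against A-KO, from -0.31 to 0.76 against R-Het and from 0.30 to 1.501 for the interaction, so that leaving out 1 array could change the sign in the comparisons that set A-KO:R-Het beside A-KO or R-Het. The share of within-genotype sum of squares held by the members was 6.26% on chip 1 alone, 23.1% on chip 2 alone and 9.60% with the damaged array kept. Chip as a block gave medians of -0.73, -0.73 and -0.83 against WT. Of 3306 values of named members in other settings, 3297 moved by less than the gene's SD and 9 by more, all of Tpm2 with another or several probes. Here too the limit is a spread, so staying under it does not show stability. Adding the members' mean as a covariate and reading Tpm2 by its more variable probe were chosen after seeing the data. With the covariate the medians against WT were 0.0089, 0.020 and 0.029, since the members define it. No paired analysis was possible because the labels give no replicate numbers that could pair mice across genotypes.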
